A study of Mus musculus with 16 samples.

Results

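The aminoacyl-tRNA synthetases are the enzymes that join each amino acid to its transfer RNA. Their genes were selected here from mouse liver arrays by symbol and by detection. A gene belonged to the group if its symbol had the form of a synthetase name and if 1 of its probes or more was detected, at p under 0.05 over negative controls, on 4 or more of the 16 arrays. The brightest such probe stood for the gene. In all, 25 genes met the rule, out of 8386 genes measured in the same way. Of 37 mouse synthetase symbols, 8 had a named probe that was too dim (Cars, Farsa, Hars, Yars, Hars2, Pars2, Wars2 and Yars2), and for 4 no probe was named. The detection values that chose the members are given here as a description. The members nearest to the limit were Eprs, detected on 14 arrays, and Mars2, detected on 15, and the other 23 were detected on all 16. The nearest genes outside it were Pars2, detected on 3 arrays, and Farsa and Hars, each on 2.

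Mammalian cells keep separate sets of synthetases for translation in the cytosol and in mitochondria, and nuclear genes encode both sets. Several cytosolic enzymes are bound together in the multisynthetase complex, which the scaffold proteins Aimp1, Aimp2 and Eef1e1 hold together. In cultured mammalian cells, a shortage of amino acids leaves transfer RNA uncharged. The kinase GCN2 senses this, and the transcription factor ATF4 then raises many cytosolic synthetase genes together with amino acid synthesis genes such as Asns. In the liver, the synthetases supply the making of plasma proteins as well as the cell's own.

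The livers came from male C57BL/6 mice on Lieber-DeCarli liquid diets, with 4 mice in each of 4 groups. Control mice were pair-fed the control liquid diet, and the other 3 groups received the ethanol diet, so ethanol was shared by the alcohol, DADS and garlic oil groups. Gavage was given daily for 4 weeks. It held 0.1 ml of olive oil alone in the control and alcohol groups, 15 mg/kg of diallyl disulfide (DADS, a sulfur compound of garlic) in the DADS group, and 50 mg/kg of garlic oil in the garlic oil group. No group received DADS or garlic oil on the control diet, and no age of the mice was used here. RNA from each liver was hybridised to a 1-colour Illumina BeadChip, and every level below is a normalized log2 intensity of 1 probe. Levels of different probes are not comparable, so genes are compared by their changes.

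By the array identifiers, control and alcohol arrays shared 1 chip, and DADS and garlic oil arrays shared the other. Alcohol against control and garlic oil against DADS are therefore comparisons within a chip, while in every other comparison chip and group cannot be told apart. On their chips, control and DADS arrays held positions 1 to 4, and alcohol and garlic oil arrays positions 5 to 8. Position and group therefore cannot be told apart in the comparisons within a chip. Between 10631 and 11526 of 25697 probes were detected per array. Of 8 hepatocyte markers 7 were tested, and their mean level lay between 12.15 and 12.56 on every array. Alcohol replicate 1 stood apart: the mean of the 5 tested pancreatic acinar markers was 15.67 there and between 6.49 and 7.40 on the other arrays. Changes that rest on the alcohol group are therefore also given without that array for the members described there.

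The 25 members were 15 cytosolic and 10 mitochondrial genes. The cytosolic members were Aars, Eprs, Farsb, Gars, Iars, Kars, Lars, Mars1, Nars, Qars, Rars, Sars, Tars, Vars and Wars. The first letter of each symbol is the letter code of the amino acid, except that Eprs charges both glutamate and proline. Farsb encodes the beta subunit of the phenylalanine enzyme. Gars and Kars were counted as cytosolic by their symbols, although each gene makes a cytosolic and a mitochondrial form. The mitochondrial members were Aars2, Ears2, Fars2, Iars2, Lars2, Mars2, Nars2, Rars2, Sars2 and Vars2.

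RefSeq promoters of build GRCm38.p6, from 250 bases before to 50 after each gene's start, were given for 20 of the 25 members. None was given for Lars, Nars, Rars, Vars and Wars. The promoters were searched on both strands for TGATGNAAN, the core of the element that ATF4 binds with its partners. The letters were found in 4 of 10 cytosolic and 0 of 10 mitochondrial members, and in 4.50% of all 27025 promoters. One match for each of these genes is shown because the element sets 4 cytosolic genes apart in sequence, and their changes are given below. The matches lay on the strand opposite to the gene, so the capitals below mark the reverse complement of the element, in gene direction, with 12 bases on either side. The windows lie at chr6:55037958-55037990 (plus strand) for Gars, chr8:111033838-111033870 (plus strand) for Aars, chr13:49682124-49682156 (plus strand) for Iars and chr15:11399654-11399686 (minus strand) for Tars.
Gars: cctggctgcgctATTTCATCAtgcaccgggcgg
Aars: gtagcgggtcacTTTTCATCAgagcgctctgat
Iars: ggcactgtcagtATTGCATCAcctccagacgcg
Tars: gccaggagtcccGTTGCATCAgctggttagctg
The element began 31 bases before the start in Gars and 16 bases before it in Tars, and the matches shown for Aars and Iars lay after it. The E-box CACGTG, to which MYC and related factors bind, was found in 5 of 20 member promoters (Aars, Ears2, Farsb, Iars and Tars), against 8.09% of all promoters. No TGATGNAAN match overlapped a CACGTG match. A match is a description of the letters only.

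Alcohol against control asked how the ethanol diet alone moved the synthetases. In limma's fit of 16 arrays, adjusted over 8386 genes, 0 of 25 members passed an adjusted p of 0.05 in either direction. Of all genes, 1.94% were called higher and 1.63% lower. At an unadjusted p under 0.05 there were 5 members, beside 1515 of all 8386 genes. A fit with array weights called 2 members, both higher, where it called 7.98% of all genes. Of 15 cytosolic members 13 had a positive change, with a median of 0.14 on the log2 scale (0.08 to 0.17 over the alternatives run), beside -0.01 over all genes. Of 10 mitochondrial members 6 were positive, with a median of 0.02 (-0.03 to 0.09 over the alternatives).

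Nars, which charges asparagine, came nearest to the threshold. Its level was 10.22, 10.10, 9.98 and 10.22 in the controls and 10.46, 10.47, 10.72 and 10.73 in the alcohol group, so all 4 alcohol mice lay above all 4 controls. The change was 0.46 ± 0.13 (SE, n = 4 per group), 1.38-fold, with an adjusted p of 0.0538 in limma. Without alcohol replicate 1 it was 0.51, with an adjusted p of 0.0636 in limma. Of all genes, 12.7% had groups that did not overlap in this comparison, and of the members Nars and Aars2 did.

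Rars, the arginine enzyme of the complex, read 8.31, 7.87, 7.93 and 8.17 in the controls and 9.03, 8.01, 8.86 and 9.02 in the alcohol group. Alcohol replicate 2 lay among the controls and the other 3 above them. The change was 0.66 ± 0.22 with an adjusted p of 0.106 in limma, and 0.56 without alcohol replicate 1 (adjusted p = 0.238). Its mitochondrial partner Rars2 read 8.16, 8.01, 8.23 and 7.95 in the controls and 8.44, 8.46, 8.41 and 8.21 in the alcohol group, a change of 0.29 ± 0.11 with an adjusted p of 0.169 in limma (0.27 without alcohol replicate 1). The lowest alcohol mouse lay just under the highest control.

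Qars, which charges glutamine, read 10.19, 10.24, 10.49 and 10.45 in the controls and 10.66, 10.65, 10.42 and 10.51 in the alcohol group. The groups overlapped, and the change was 0.22 ± 0.12 with an adjusted p of 0.367 in limma (0.18 without alcohol replicate 1).

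The remaining members with a small p were mitochondrial and pointed down. Aars2, which charges mitochondrial alanine transfer RNA, read 6.59, 6.59, 6.84 and 6.53 in the controls and 6.24, 6.49, 6.29 and 6.32 in the alcohol group. All 4 alcohol mice were below all 4 controls, and the change was -0.31 ± 0.11 with an adjusted p of 0.154 in limma (-0.27 without alcohol replicate 1). Nars2, the mitochondrial asparagine enzyme, read 6.72, 6.47, 7.14 and 6.88 in the controls and 6.37, 6.52, 6.81 and 5.66 in the alcohol group. These groups overlapped, with alcohol replicate 4 the lowest of the 8, and the change was -0.46 ± 0.21 with an adjusted p of 0.248 in limma (-0.47 without alcohol replicate 1).

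Of the 10 pairs of a cytosolic gene and its mitochondrial partner, the asparagine pair had the largest shift in the comparisons tested. The log2 level of Nars minus that of Nars2 averaged 3.33 ± 0.35 (SD, n = 4) in control and 4.26 ± 0.55 in alcohol mice, a shift of 0.93, and of 0.98 without alcohol replicate 1. The exact permutation test, two-sided, gave p = 0.0286, the smallest that 4 mice against 4 can give. With 10 pairs in 4 comparisons there were 40 such tests, 3 reached this p, and after Benjamini-Hochberg adjustment each was 0.381. As no p here can be smaller, a few pairs alone could not pass after this adjustment, whatever their shift. That 0 passed therefore decides nothing about a pair. The other pair that reached the smallest p was Vars and Vars2, in garlic oil against DADS (described below) and in DADS against alcohol. In DADS against alcohol its shift was 0.33, and 0.38 without alcohol replicate 1.

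**Figure D1:**
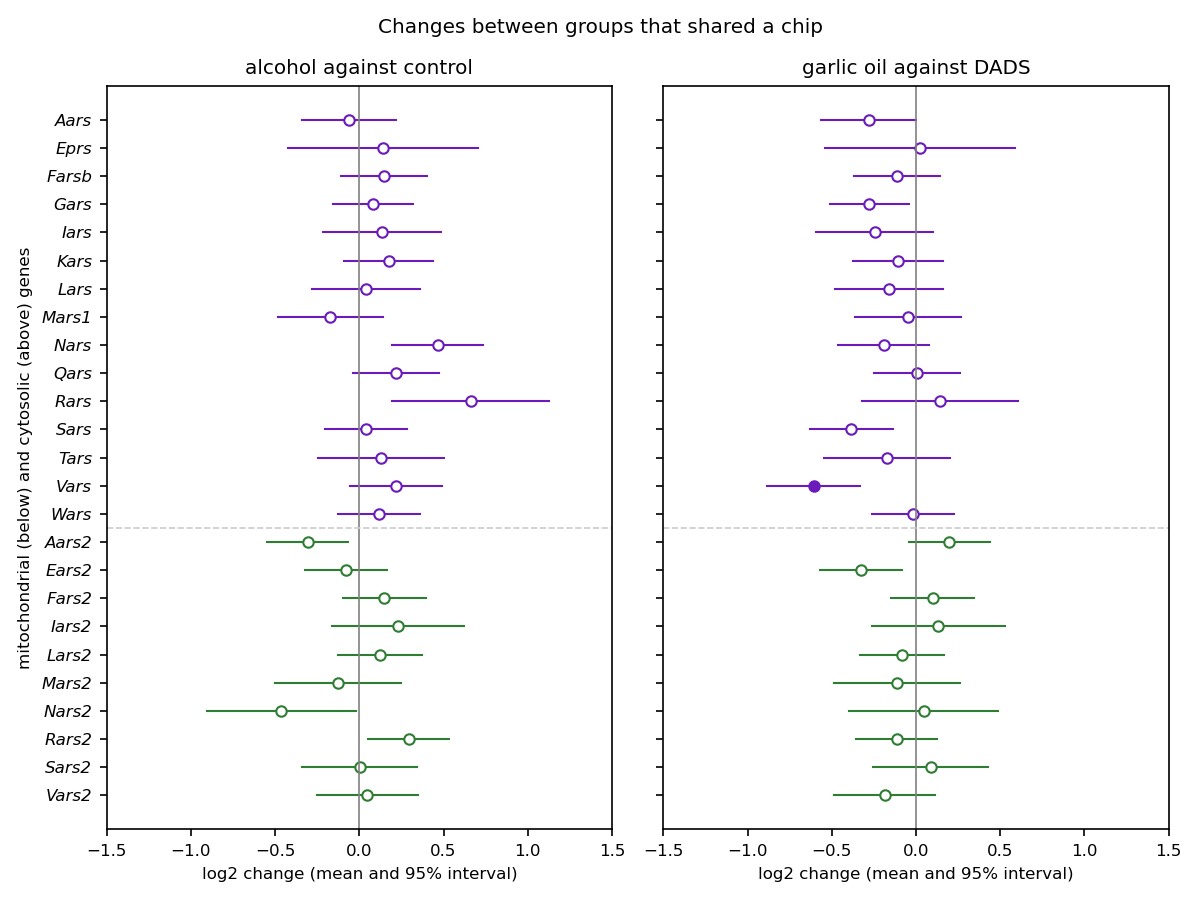
Change in log2 level of each of the 25 synthetase genes in the comparisons within a chip: alcohol against control (left) and garlic oil against DADS (right). Points are limma estimates and bars 95% intervals, a filled point marks an adjusted p under 0.05, and the dashed line parts cytosolic (above) from mitochondrial genes (below). Vars on the right is the only filled point, and cytosolic points lie mostly right of 0 on the left and left of 0 on the right.

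DADS against alcohol asked what DADS changed on top of the ethanol diet. Of 25 members 0 were called higher and 1 lower, where 1.23% of all genes were called higher and 1.61% lower. At an unadjusted p under 0.05 there were 4 members in all, beside 1541 of all 8386 genes. Of 8386 genes, 390 lay wholly above and 379 wholly below the alcohol mice, and of the members 2 and 1 did. The median change was 0.01 for cytosolic and 0.06 for mitochondrial members, beside 0.02 over all genes. Ears2, the mitochondrial glutamate enzyme, had the highest change among mitochondrial members, 0.38 ± 0.12, with an adjusted p of 0.0862 in limma (0.38, with 0.141, without alcohol replicate 1).

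The member that fell was Wars, the cytosolic tryptophan enzyme, which interferon gamma is known to induce. Wars read 8.83, 8.60, 8.53 and 8.56 in the alcohol group and 8.14, 8.02, 8.12 and 8.13 in the DADS group. The groups lay well apart, and the change was -0.52 ± 0.12, 1.44-fold lower, with an adjusted p of 0.0244 in limma. Without alcohol replicate 1, the array with acinar markers, the change was -0.46 and the adjusted p 0.0631, so the call was lost. It was lost too without DADS replicate 2 (adjusted p = 0.055) or DADS replicate 3 (adjusted p = 0.056) in limma.

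Garlic oil against alcohol gave the same single member in the same direction. Wars read 7.85, 8.18, 8.09 and 8.23 in the garlic oil group, all below the alcohol mice, and the change was -0.54 ± 0.12, 1.46-fold lower, with an adjusted p of 0.0272 in limma. Without alcohol replicate 1 the change was -0.48 with an adjusted p of 0.0668, and the call was lost as well without alcohol replicate 2 (0.058) or garlic oil replicate 1 (0.054). So 0 members were called higher and 1 lower, where 0.692% of all genes were called higher and 1.32% lower. At an unadjusted p under 0.05 there were 4 members in limma, beside 1550 of all 8386 genes. Of 8386 genes, 264 lay wholly above and 494 wholly below the alcohol mice, and of the members 0 and 2 did. DADS and garlic oil comparisons share the same alcohol arrays.

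Wars was also the one member whose levels separated the chips. The 8 control and alcohol arrays ran from 8.31 to 8.83 and the 8 DADS and garlic oil arrays from 7.85 to 8.23, and 1.19% of all genes separated the chips in the same way. Wars has 4 passing probes, and the other 3 differed from the brightest. Against alcohol they gave -0.22, -0.05 and -0.23 for DADS and -0.21, 0.24 and 0.06 for garlic oil. With the mean of all 4 probes the change was -0.26 for DADS (adjusted p = 0.313 in limma) and -0.11 for garlic oil (adjusted p = 0.685).

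Macrophage markers moved with the same comparison. Of 13 listed, 9 were tested, and 7 were called lower in DADS than in alcohol mice. Their mean level ran from 8.22 to 9.50 in DADS mice, from 9.56 to 9.86 in alcohol mice and from 9.55 to 10.04 in garlic oil mice, where Wars averaged 8.08, beside 8.10 in DADS mice. In bulk liver, fewer cells of a type and less RNA per cell cannot be told apart. The part of these cells in the Wars result was not tested.

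The cytosolic class had mostly negative changes with garlic oil against alcohol. Of 15 members 12 were below 0 (8 to 12 over the alternatives run), with a median of -0.18 (-0.18 to -0.03 over the alternatives run), beside -0.03 over all genes. Among mitochondrial members 2 of 10 were negative, and the median was 0.05. The 8 cytosolic members outside the multisynthetase complex (Aars, Farsb, Gars, Nars, Sars, Tars, Vars and Wars) were all negative, with a median of -0.20, and of the 7 members in the complex 4 were, with a median of -0.04. The change of Gars lay close to 0, and it was positive under both median scalings and without alcohol replicate 1 or 2 or garlic oil replicate 2 or 4, as was Sars with the mean of its probes, so 7 of the 8 were negative there. Tars, the threonine enzyme, had a change of -0.48 ± 0.18 with an adjusted p of 0.160 in limma. Vars, the valine enzyme, had one of -0.48 ± 0.13 with an adjusted p of 0.0612. Without alcohol replicate 1 these were -0.56 (adjusted p = 0.133) and -0.53 (adjusted p = 0.0754). Neither passed.

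Garlic oil against DADS compares the sulfur preparations within a chip, at 50 mg/kg of one and 15 mg/kg of the other, so the doses differ. The single call was Vars. Vars read 9.51, 9.19, 9.16 and 9.50 in DADS mice and 8.75, 8.71, 8.65 and 8.81 in garlic oil mice. Every garlic oil mouse was below every DADS mouse and also below the controls, which read 9.08, 8.93, 8.999 and 8.97. Against the controls, which were on the other chip, the change was -0.26 and did not pass (adjusted p = 0.174 in limma). Against DADS it was -0.61 ± 0.13 (95% interval -0.88 to -0.33), 1.52-fold lower, with an adjusted p of 0.0253 in limma. Of all genes, 1.11% were called lower here and 0.739% higher.

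The size of the Vars change depended on the probe. The other passing probes gave -0.19 and -0.09, the second of them detected on 4 arrays only, and with the mean of the 3 probes the change was -0.30 with an adjusted p of 0.326 in limma. Normalized and fitted with the 8 arrays of the chip alone, the change stayed -0.61 but the adjusted p was 0.0868. The call was lost without DADS replicate 1 (adjusted p = 0.065), DADS replicate 4 (0.064), garlic oil replicate 2 (0.058) or garlic oil replicate 3 (0.064) in limma. Vars2, its mitochondrial partner, had a change of -0.19, which did not pass. The level of Vars minus Vars2 was -0.39 ± 0.06 (SD, n = 4) in DADS and -0.81 ± 0.24 in garlic oil mice, with p = 0.0286 and an adjusted p of 0.381 in the exact permutation test. As said above, this adjusted p could not pass for a few pairs alone.

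Other cytosolic members pointed the same way without passing. Sars, the serine enzyme, read 8.87, 9.11, 8.88 and 8.79 in DADS mice and 8.56, 8.47, 8.48 and 8.60 in garlic oil mice. Its groups did not overlap, and the change was -0.39 ± 0.12 with an adjusted p of 0.0975 in limma. Of all genes 8.05% had groups that did not overlap in this comparison, and of the members Vars, Sars and the mitochondrial Ears2 did, each lower with garlic oil. In all 12 of 15 cytosolic members had a negative change, with a median of -0.16 (-0.27 to -0.08 over the alternatives run), and 5 of 10 mitochondrial members, with a median of -0.02, beside -0.03 over all genes. As against alcohol, all 8 cytosolic members outside the complex were negative, with a median of -0.23. Of the 7 in the complex 4 were, with a median of -0.05. Both comparisons use the same garlic oil arrays, so the second is no independent repeat of the first. Wars was positive with the mean of its probes, the planned median scaling, array weights or without garlic oil replicate 1, which left 7 of the 8. At an unadjusted p under 0.05 there were 5 members, beside 1408 of all 8386 genes.

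Cell markers differed in this comparison too. Of 9 tested macrophage markers 4 were called higher in garlic oil than in DADS mice, as were all 3 tested red cell markers, whose mean level ran from 9.11 to 9.66 in DADS and from 11.09 to 11.46 in garlic oil mice. Their part in the synthetase changes was not tested.

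Averaged per mouse as the difference from the control mean, the cytosolic class lay at 0.18, 0.12, 0.13 and 0.19 in alcohol mice. It lay at 0.23, 0.31, 0.12 and 0.08 in DADS mice and at 0.10, -0.06, 0.06 and -0.01 in garlic oil mice. The controls themselves ran from -0.11 to 0.09, so the alcohol mice were all above them. DADS replicate 4 lay within the range of the controls and the other DADS mice above it. Garlic oil replicate 1 lay just above that range and the other garlic oil mice within it. The mitochondrial class stayed between -0.10 and 0.15 in all 16 mice, and its groups overlapped throughout. The pooled SD between mice of a group was 0.08 for the cytosolic and 0.07 for the mitochondrial mean.

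**Figure D2:**
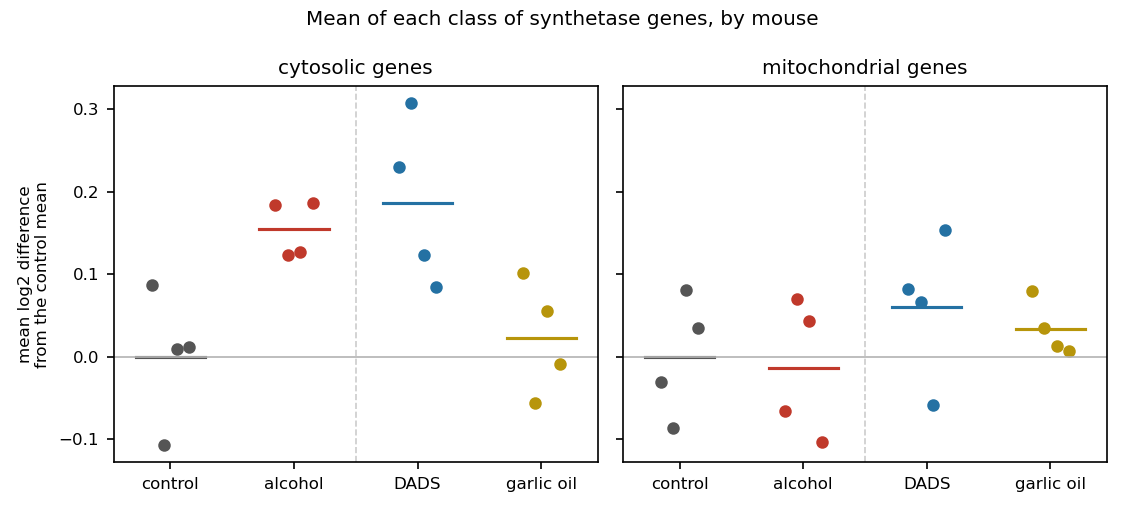
Mean log2 difference from the control mean over the 15 cytosolic (left) and the 10 mitochondrial synthetase genes (right), 1 point per mouse and a line at each group's mean. The dashed line parts the chips. Cytosolic means of the alcohol mice lie between 0.12 and 0.19, those of the garlic oil mice between -0.06 and 0.10, and the mitochondrial groups overlap.

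Against control, the sulfur groups differ in diet, gavage and chip, and many more genes were called. Both comparisons use the same control arrays. With DADS 8.48% of all genes were called higher and 7.44% lower, and with garlic oil 8.56% and 9.29%. Of 25 members 5 were higher and 2 lower with DADS, and 2 were higher and 1 lower with garlic oil. Groups that did not overlap were common here. Of 8386 genes, 991 lay wholly above and 920 wholly below the controls with DADS, and 886 and 1136 with garlic oil. Of the members, 9 and 2 did with DADS, and 2 and 4 with garlic oil. The cytosolic median was 0.18 with DADS and -0.04 with garlic oil, where its sign turned under some alternatives (-0.09 to 0.09), and the mitochondrial median 0.14 and 0.12.

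Gars, the glycine enzyme, was among the cytosolic members that rose with DADS against control. It read 12.05, 12.03, 12.11 and 12.13 in controls and 12.55, 12.49, 12.48 and 12.24 in DADS mice. The change was 0.36 ± 0.11, with an adjusted p of 0.0387 in limma. Alcohol mice read 12.21, 12.23, 12.17 and 12.05 and garlic oil mice 12.28, 12.06, 12.34 and 11.97, so the DADS mice stood above all alcohol mice and overlapped the garlic oil mice. The call for Gars was lost in the authors' normalized table (adjusted p = 0.052) and under the planned median scaling (adjusted p = 0.109), and leaving out any 1 control, or DADS replicate 1, 2 or 3, ended the call (adjusted p up to 0.096).

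Lars, the leucine enzyme, which also senses leucine for mTORC1 in cultured cells, read 9.16, 8.73, 8.995 and 9.19 in controls and 9.26, 9.84, 9.47 and 9.43 in DADS mice. The groups did not overlap, although the lowest DADS mouse was close to the highest control. The change was 0.48 ± 0.15 with an adjusted p of 0.0398 in limma. Alcohol mice read 9.37, 8.74, 9.01 and 9.12 and garlic oil mice 9.30, 9.29, 9.42 and 9.34. The call was lost without 6 of the 8 arrays compared, all but control replicate 4 and DADS replicate 1, with an adjusted p of up to 0.131, and with no filter on dim probes (0.058).

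Nars read 10.64, 10.85, 10.57 and 10.39 in DADS mice, above every control. The change was 0.48 ± 0.13 with an adjusted p of 0.0178 in limma, and it was lost only without control replicate 3 (0.058) or DADS replicate 2 (0.062) among the alternatives run. In garlic oil mice Nars read 10.46, 10.19, 10.41 and 10.62, which overlapped the controls. With alcohol alone its change against control was 0.46. Against alcohol, Nars changed by 0.02 with DADS (adjusted p = 0.967 in limma), or by -0.03 without alcohol replicate 1.

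Rars rose against control in both sulfur groups. It read 8.64, 9.14, 8.62 and 8.55 in DADS mice and 9.05, 8.39, 9.21 and 8.86 in garlic oil mice, and all 8 lay above the highest control at 8.31. The change was 0.67 ± 0.22 (adjusted p = 0.0484 in limma) with DADS and 0.81 ± 0.22 (adjusted p = 0.0189), or 1.75-fold, with garlic oil. Its second probe gave 0.57 and 0.80. With alcohol alone the change against control was already 0.66. Against alcohol, Rars changed by 0.006 with DADS (adjusted p = 0.996 in limma) and by 0.15 with garlic oil (adjusted p = 0.773). Without alcohol replicate 1 these changes against alcohol were 0.10 and 0.25, and neither passed. The garlic oil call held in 13 of 16 fits without 1 array and was lost without control replicate 2 (0.06), control replicate 3 (0.052) or garlic oil replicate 3 (0.058). The DADS call held in 5 of 16, and it was lost with no filter on dim probes (0.098) and with the mean of both probes.

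Of the mitochondrial members, Rars2 read 8.55, 8.33, 8.36 and 8.54 in DADS mice, all above the controls. The change was 0.36 ± 0.11 with an adjusted p of 0.0401 in limma, and its other 2 probes gave 0.41 and 0.29. Garlic oil mice read 8.23, 8.20, 8.46 and 8.43 and overlapped the controls. With alcohol alone the change of Rars2 against control was 0.29. Against alcohol, Rars2 changed by 0.06 with DADS (adjusted p = 0.818 in limma), or by 0.08 without alcohol replicate 1. The DADS call held in 10 of 16 fits without 1 array, and was lost without control replicate 1, 2 or 4 or DADS replicate 1, 3 or 4, with an adjusted p of up to 0.114.

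Iars2, the mitochondrial isoleucine enzyme, rose with garlic oil. It read 8.05, 7.65, 7.96 and 8.15 in controls and 8.53, 8.10, 8.86 and 8.55 in garlic oil mice, where replicate 2 fell within the control range. The change was 0.56 ± 0.19, 1.47-fold, with an adjusted p of 0.0469 in limma. Alcohol mice read 8.62, 7.72, 8.16 and 8.22 and DADS mice 8.40, 8.63, 8.30 and 8.19. The call was lost without any 1 of the 4 controls (adjusted p up to 0.143) or without garlic oil replicate 1 (0.083), 3 (0.136) or 4 (0.096). It was also lost without alcohol replicate 3 or 4 or DADS replicate 1 or 3, so that it held in 5 of 16 such fits, and with no filter on dim probes (0.086).

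Aars2 fell with DADS against control. It read 6.17, 6.19, 6.02 and 6.40 there, below every control, and the change was -0.44 ± 0.11, 1.36-fold lower, with an adjusted p of 0.0150 in limma. Garlic oil mice read 6.34, 6.39, 6.51 and 6.33, also below the controls, with a change of -0.25 that did not pass. With alcohol alone the change of Aars2 against control was -0.31. Against alcohol, Aars2 changed by -0.14 with DADS (adjusted p = 0.571 in limma), or by -0.17 without alcohol replicate 1. The DADS call was lost without control replicate 3 (0.055) or DADS replicate 3 (0.051), and under median scaling over all probes.

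Wars fell against control in both groups, by 0.40 with DADS (adjusted p = 0.0253 in limma) and by 0.43 with garlic oil (adjusted p = 0.0186). The controls read 8.57, 8.31, 8.58 and 8.58. With DADS the call was lost without control replicate 1, 3 or 4 or DADS replicate 2 (adjusted p up to 0.067), and with garlic oil without control replicate 3 or 4 or garlic oil replicate 1 (up to 0.054). Both calls were also lost under median scaling over all probes. With the mean of its passing probes Wars did not pass either (adjusted p = 0.0871 with DADS and 0.330 with garlic oil in limma). Of the other probes, 1 gave a like fall in both groups (-0.39 and -0.38), and the other 2 gave -0.25 and -0.28 with DADS but 0.04 and 0.01 with garlic oil.

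**Figure D3:**
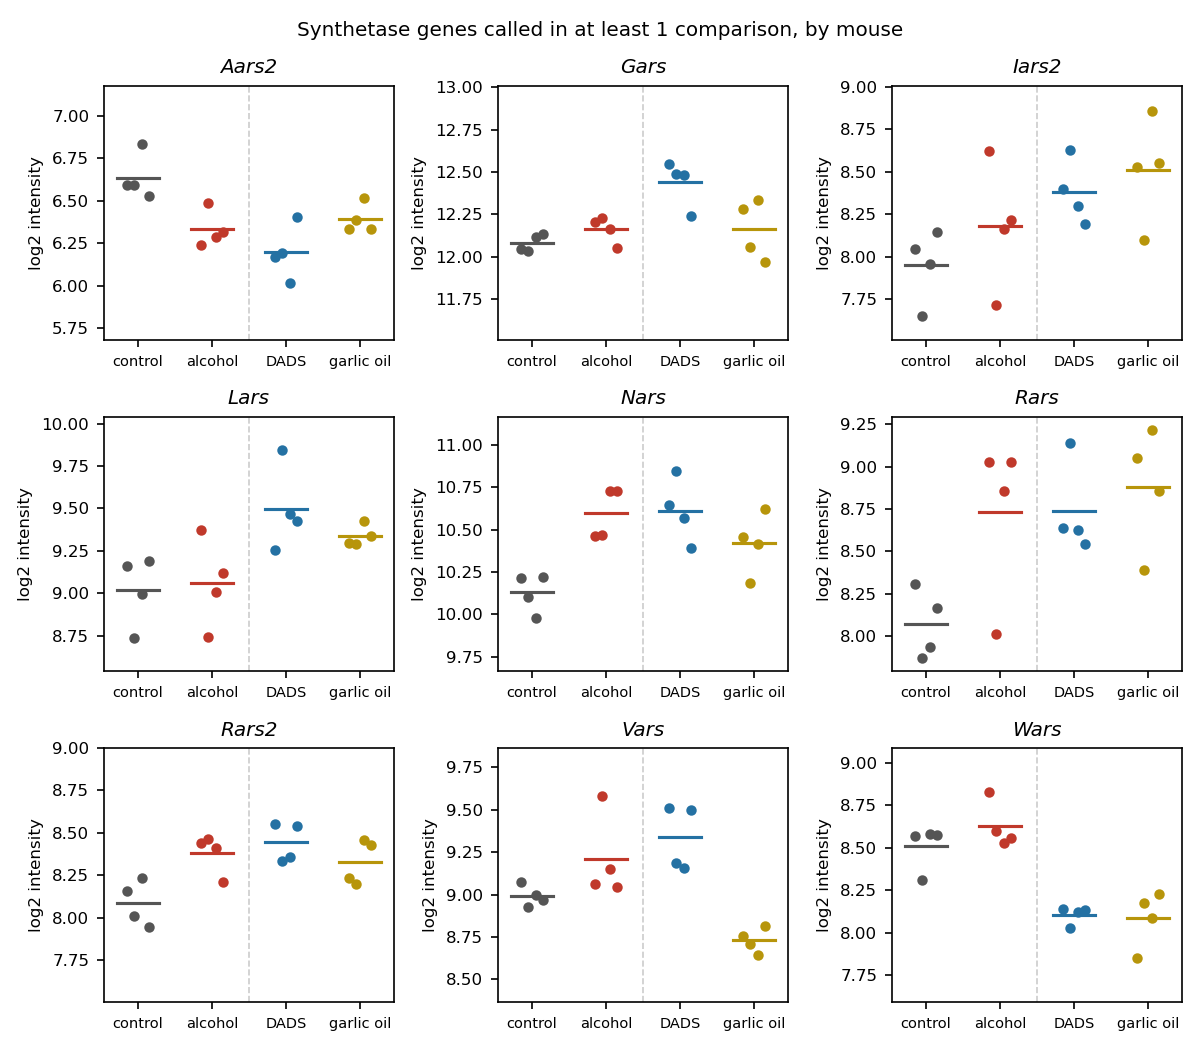
Normalized log2 intensity of the 9 synthetase genes with an adjusted p under 0.05 in at least 1 of the 6 comparisons, 1 point per mouse and a line at each group's mean. Each panel has its own axis range, and the dashed line parts the chips. Wars lies at 8.31 or above left of the line and at 8.23 or below right of it, and Vars is lowest in the garlic oil mice.

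**Figure D4:**
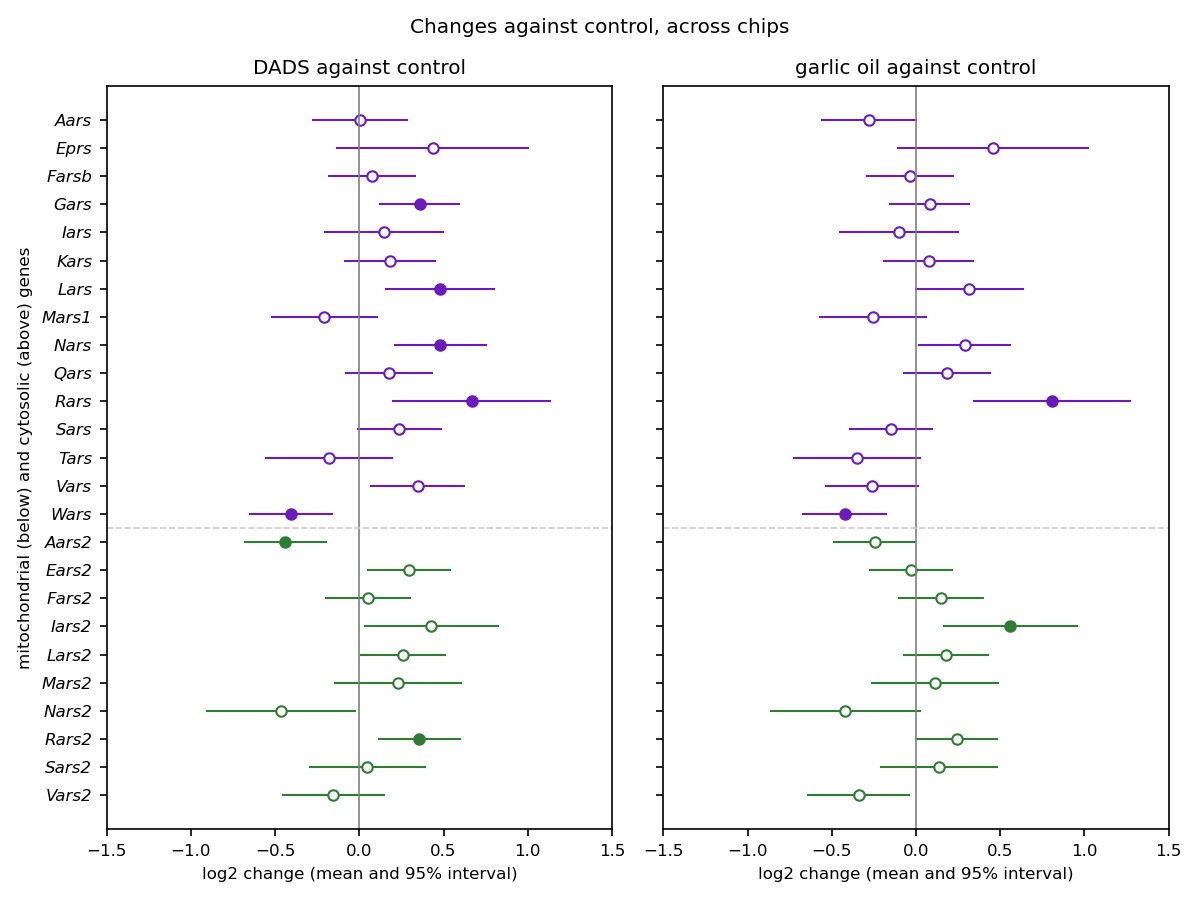
Change in log2 level of each synthetase gene in DADS (left) and garlic oil (right) mice against control, comparisons that cross the chips. Points are limma estimates, bars 95% intervals and filled points adjusted p under 0.05. With DADS 5 filled points lie right of 0 and 2 left, and with garlic oil 2 lie right and 1 left.

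Nars2 did not pass in any comparison. It read 6.22, 6.30, 6.13 and 6.69 in DADS and 6.57, 6.34, 6.12 and 6.50 in garlic oil mice. Its change against control was -0.47 and -0.42, beside -0.46 with alcohol alone. Qars read 10.48, 10.51, 10.69 and 10.39 in DADS and 10.31, 10.44, 10.64 and 10.70 in garlic oil mice, within 0.22 of the control mean in every group mean. The members that no sentence describes singly (Eprs, Farsb, Fars2, Kars, Lars2, Mars1, Mars2 and Sars2) had no adjusted p under 0.05 in any comparison.

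**Figure D5:**
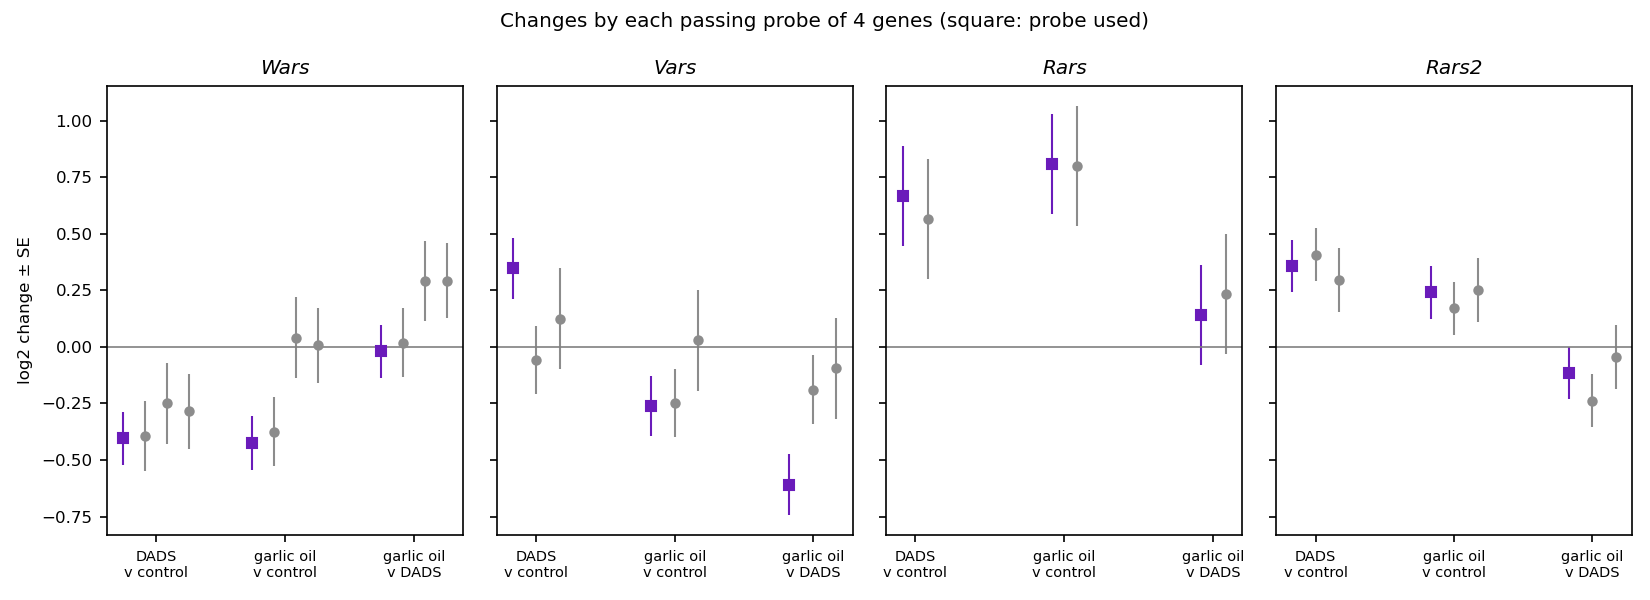
Log2 change ± SE by each passing probe of Wars, Vars, Rars and Rars2 in 3 comparisons, with a square for the probe that stood for the gene. The probes of Rars and Rars2 lie close together, while those of Wars part in garlic oil against control, from -0.43 to 0.04, and those of Vars in garlic oil against DADS, from -0.61 to -0.09.

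Over all members, 14 further probes of 10 genes passed the filter. Across 6 comparisons that made 84 values, and 62 had the sign of the probe that stood for the gene.

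The members did not move as 1 block. The median correlation over the 105 pairs of cytosolic members across 16 arrays was 0.19, and 0.05 once group means were removed. The closest pair was Iars2 and Rars, with Pearson's r of 0.89 and Spearman's rho of 0.92 over 16 mice. Pearson's r was 0.89 with group means removed, and 0.84 without the 2 arrays farthest from the median of Iars2. Lars went with them, at r = 0.81 with Iars2 (rho 0.80) and 0.69 with Rars (rho 0.64). The strongest negative value was that of Aars2 and Nars, with r of -0.79 and rho of -0.82, and it was -0.45 with group means removed. These values describe pairs picked from all 300, on arrays that were normalized together, and no test was made.

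Of genes outside the family, those most like the mean standardised level of the cytosolic members over 16 arrays were Ctr9 (r = 0.88), Urb2 (0.87), Dkk3 (0.85), Psat1 (0.84), Uap1l1 (0.84), Mcm2 (0.83), Ano10 (0.82) and Rbm43 (0.82). With group means removed these were between 0.56 and 0.80. Psat1 makes serine from a glycolytic intermediate and is an ATF4 target in cultured cells. It was detected on 0 control, 4 alcohol, 4 DADS and 1 garlic oil arrays. Psat1 read 7.84, 7.94, 7.41 and 5.83 in DADS and 5.63, 4.98, 5.06 and 5.45 in garlic oil mice, and limma called it lower in garlic oil than in DADS mice (adjusted p = 0.0115). No fold is given, because 3 of 4 garlic oil arrays did not detect it.

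The 34 listed genes of the ATF4 response to amino acid shortage had 22 tested, without the synthetases. In alcohol against control 2 were called higher and 2 lower, with a median of 0.20, beside -0.01 over all genes. Of all genes, 1.94% were called higher and 1.63% lower. Chac1, which degrades glutathione, rose by 1.55 and Ddit4, an inhibitor of mTORC1, by 2.59, while Atf4 itself fell by 0.59 (adjusted p = 0.0220 in limma) and Fgf21, a fasting hormone, by 1.97. Without alcohol replicate 1 the call of Fgf21 was lost (adjusted p = 0.0779). In DADS against alcohol Vldlr, a lipoprotein receptor, was the 1 gene called, higher by 1.51, and the call was lost without alcohol replicate 1 (adjusted p = 0.0666). Without that array Nupr1, a stress-induced transcription regulator, was called higher by 2.01 (adjusted p = 0.0243), beside 0.83 with all arrays. In garlic oil against DADS Psat1 was the 1 gene called. In garlic oil against alcohol limma called 0, with 7 at an unadjusted p under 0.05, beside 1550 of all 8386 genes. Against control 4 were higher and 0 lower with DADS, and 5 were higher and 2 lower with garlic oil. Over all genes the shares were 8.48% higher and 7.44% lower with DADS, and 8.56% and 9.29% with garlic oil.

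Asns, the asparagine synthetase of metabolism and no tRNA enzyme, read 8.48, 7.97, 7.66 and 9.23 in controls, 11.24, 10.35, 8.94 and 9.09 in alcohol, 10.41, 10.43, 11.13 and 8.83 in DADS and 9.48, 7.18, 9.11 and 8.05 in garlic oil mice. It was wide in every group. It rose by 1.87 with DADS against control (adjusted p = 0.0345 in limma). Its change was 1.57 with alcohol (adjusted p = 0.139), or 1.13 without alcohol replicate 1, and -1.75 in garlic oil against DADS (adjusted p = 0.122), and neither passed. Trib3, a brake on ATF4, had a change of -0.26 with alcohol and of 0.74 in DADS against alcohol (adjusted p = 0.0570), and did not pass in any comparison. Xpot and Eif2ak4, the tRNA exporter and the gene of GCN2, were not among the genes tested.

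Of the members, ATF4 is known to raise Aars, Eprs, Gars, Iars, Lars, Mars1, Nars, Sars, Tars and Wars in cultured cells. With alcohol 8 of these 10 had a positive change, with a median of 0.10, and in garlic oil against DADS 9 of 10 had a negative one, with a median of -0.18. Of all 15 cytosolic members, 13 were positive with alcohol (median 0.14) and 12 negative in garlic oil against DADS (median -0.16). The cytosolic members outside this set, Farsb, Kars, Qars, Rars and Vars, changed by 0.14, 0.17, 0.22, 0.66 and 0.22 with alcohol. In garlic oil against DADS they changed by -0.11, -0.11, 0.01, 0.14 and -0.61. For the 4 with the promoter element shown above the change with alcohol was -0.06 (Aars), 0.08 (Gars), 0.14 (Iars) and 0.13 (Tars), and without alcohol replicate 1 it was 0.03, 0.07, 0.15 and 0.21, in the same order. In garlic oil against DADS it was -0.28, -0.28, -0.25 and -0.18 in the same order, and none of these passed. Gars against control with DADS was the 1 call among them.

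The scaffold genes of the complex were called in 1 comparison only. Of Aimp1, Aimp2 and Eef1e1, 2 rose with garlic oil against control: Eef1e1 by 0.89 (adjusted p = 0.0361 in limma) and Aimp1 by 0.52 (adjusted p = 0.0498). In the other 5 comparisons limma called 0 of 3, with 1 gene at an unadjusted p under 0.05 in garlic oil against alcohol and 0 in the rest. The difference between comparisons was not tested.

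Of 13 synthetase-related genes 9 were tested. Qrsl1, a subunit of the enzyme that makes mitochondrial glutaminyl-tRNA from a misacylated precursor, fell by 0.61 in DADS against alcohol (adjusted p = 0.0153 in limma), by 0.68 in DADS against control and by 0.45 in garlic oil against control. Mtfmt, which formylates the mitochondrial initiator, fell by 0.48 with DADS and by 0.54 with garlic oil against control. It was detected on 4 control, 3 DADS and 2 garlic oil arrays, so the sizes of these falls are uncertain. No other gene of this list was called in limma, where between 1 and 4 had an unadjusted p under 0.05 in each comparison. Of all 8386 genes, between 1408 and 2727 had such a p, depending on the comparison. Of 12 tested genes around GCN2 and eIF2, Eif2ak2, the kinase that senses double-stranded RNA, fell with alcohol by 0.56 (adjusted p = 0.0472), a call lost without alcohol replicate 1 (adjusted p = 0.131). Against control Impact, an inhibitor of GCN2, rose by 1.17 with DADS and by 1.17 with garlic oil, and Eif2b5 by 0.49 and 0.65.

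Of 37 tested genes of tRNA transcription, processing and modification, 0 were called higher and 1 lower with alcohol: Rpp21, a protein of RNase P, fell by 0.47, and the call was lost without alcohol replicate 1 (adjusted p = 0.111). In DADS against alcohol, garlic oil against alcohol and garlic oil against DADS limma called 0, with 4, 7 and 8 at an unadjusted p under 0.05. Over all 8386 genes 1541, 1550 and 1408 had such a p. Against control, 5 were higher and 2 lower with DADS and 1 higher and 4 lower with garlic oil. Of all genes, 8.48% were called higher and 7.44% lower with DADS, and 8.56% and 9.29% with garlic oil. Rpp30, another RNase P protein, rose by 1.05 and 1.14, and Tsen34, a subunit of the tRNA splicing enzyme, fell by 0.48 and 0.42. Of 12 cytosolic elongation and release factors, limma called only Eef1a1, which carries charged tRNA to the ribosome and fell by 0.61 in garlic oil against control. The other comparisons had 0 to 4 at an unadjusted p under 0.05. Of 11 mitochondrial translation factors, limma called 0 in alcohol against control and in the comparisons without control, with 1 to 3 at an unadjusted p under 0.05. Against control the release factor Mtrf1 rose by 0.68 with DADS and 0.57 with garlic oil, Gfm2 fell by 0.43 with DADS, and Mtif3 and Tufm fell by 0.54 and 0.34 with garlic oil.

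Of 16 tested regulators around mTORC1 and MYC, Ddit4 was the 1 called with alcohol. Lamtor1, which anchors mTORC1 to lysosomes, fell by 0.40 in DADS against alcohol (adjusted p = 0.0428 in limma), a call lost without alcohol replicate 1 (0.078). Mxd4, which competes with MYC for its partner MAX, fell by 0.90 with DADS and by 0.67 with garlic oil against control.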

How the data were processed

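Total RNA of 16 livers was hybridised to Illumina BeadChips. Per the file headers, the deposited scanner intensity is a mean bead signal with a detection p-value beside it, and a further deposited table gives intensity values that the authors had normalized. GenomeStudio, lumi and limma are named per the submitters' processing notes, without their settings. From the deposited scanner intensity, log2 values were computed with neqc (offset 16: normexp background correction, then quantile normalization) in limma 3.58.1 (R 4.3.3). A probe had to be detected (p under 0.05) on 4 or more of 16 arrays, and the highest-mean probe stood for each of 8386 genes. One fit with 4 group means (12 residual degrees of freedom) gave moderated, two-sided tests, adjusted by Benjamini-Hochberg over all genes, and a gene at an adjusted p under 0.05 counted as called. The number of arrays limits the precision, with a median SE of 0.162 per log2 change. The labels call the samples biological replicates.

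The members and lists were chosen with earlier results of these data known. Named were all members, those called or among the 6 smallest p in alcohol against control by mouse, up to 4 called genes of each list per comparison, and Atf4, Asns, Chac1, Trib3, Xpot and Eif2ak4. Replicate numbers are shared across groups, but the deviations of same-numbered arrays correlated at between -0.37 and 0.40, over 0.1 in 7 of 24 pairs, so they were not used for pairing. The method was tested on simulated data. Promoter sequences are from RefSeq. Alternatives are given in the closing section. One further promoter match and the names of the 4 symbols without a probe are not reported here.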

Additional observations from a re-analysis of the deposited data

Results flagged for a closer look

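In 6 of 100 sets of a member and a group, 1 of the 4 arrays lay far from the other 3 by Dixon's ratio, and chance flags about 1 set in 20. Rars had 2 of them: alcohol replicate 2 at 8.01, low beside the other alcohol mice, and DADS replicate 2 at 9.14, high beside the other DADS mice. Wars was low in control replicate 2 at 8.31, Vars2 was low in control replicate 1 at 9.76, Iars was high in garlic oil replicate 1 at 10.00, and Sars2 stood apart in DADS replicate 4 at 6.43. Without alcohol replicate 2, 2 members were called higher in alcohol against control in place of 0, where 4.5% of all genes were called in place of 3.58%.

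The response of Vars differed between the sulfur groups by -0.61 on the log2 scale, garlic oil minus DADS, with an adjusted p of 0.0253 in limma. The brightest of its 3 probes carried this size, as described above.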

How the results depend on the processing

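No result changed sign while called under any alternative run. Of 313 values of named members under alternatives, 227 kept their side of the threshold and 86 lost the call. The authors' normalized table, the planned median scaling, no filter and the stricter filter left each count of called members within 1.5 times, and the planned scaling moved the mitochondrial median to 0.034 from 0.14 in DADS against control, by more than the spread between mice. It also moved it to 0.071 from 0.12 in garlic oil against control and to 0.0033 from 0.055 in DADS against alcohol, within that spread.

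Median scaling over all probes was chosen after seeing the data. It put the median change of all genes at 0.18 in DADS against alcohol (0.02 in the main setting) and at 0.18 in DADS against control (-0.0006 in the main setting). Its counts were 3 in DADS against alcohol (3 higher, 0 lower, against 0 and 1), 0 in garlic oil against alcohol and 11 in DADS against control (11 higher, 0 lower, against 5 and 2), and in garlic oil against control 3 higher and 0 lower against 2 and 1. Of all genes it called 9.24% in DADS against alcohol (2.84% in the main setting) and 23.8% in DADS against control (15.9%). Its medians, cytosolic then mitochondrial, were 0.23 and 0.22 in DADS against alcohol, -0.031 and 0.17 in garlic oil against alcohol, -0.27 and -0.091 in garlic oil against DADS, 0.43 and 0.29 in DADS against control, and 0.086 and 0.21 in garlic oil against control. Relative to all genes, the cytosolic median was 0.05 in DADS against alcohol, -0.10 in garlic oil against alcohol, -0.18 in garlic oil against DADS, 0.25 in DADS against control and 0.01 in garlic oil against control.

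With the mean of all passing probes the count was 0 in DADS against alcohol, 0 in garlic oil against alcohol and 0 in garlic oil against DADS, and the cytosolic median was -0.10 in garlic oil against alcohol and 0.078 in garlic oil against control. Array weights gave 2 in alcohol against control and 0 in garlic oil against alcohol. The fit within the chip gave 0 in garlic oil against DADS. The cause of these moves was not tested. With the replicate block the count in DADS against control was 4, without Lars, Rars and Rars2; the other counts did not change, and the numbers are not known to pair the mice.

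Leaving out 1 array gave 0 to 2 in alcohol against control (2 without alcohol replicate 2, 1 without DADS replicate 2 or 4). It gave 0 to 1 in DADS against alcohol, garlic oil against alcohol and garlic oil against DADS, with the arrays named above. In DADS against control it gave 1 to 8: 2, 3, 1 and 3 without control replicates 1 to 4, and 4, 2, 2 and 4 without DADS replicates 1 to 4. In garlic oil against control it gave 0 to 3: 0 without control replicate 3, and 1 without control replicate 2 or 4 or garlic oil replicate 1 or 3. Cytosolic medians ran from -0.18 to -0.10 in garlic oil against alcohol (-0.10 without garlic oil replicate 2), from -0.19 to -0.085 in garlic oil against DADS (-0.085 without DADS replicate 2) and from -0.087 to 0.041 in garlic oil against control (0.041 without control replicate 1). The mitochondrial median ran from 0.045 to 0.16 in garlic oil against control (0.045 without garlic oil replicate 1). Dim members limit what can be said: Eprs and Mars2 were not detected on every array.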
